A study of Mus musculus with 11 samples.

Results

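Epithelial-mesenchymal transition (EMT) is the switch in which epithelial cells lose their junctions and take on the shape and movement of mesenchymal cells, and a small set of transcription factors drives it. The 7 factors described here are Snai1, Snai2, Zeb1, Zeb2, Twist1, Twist2 and Prrx1, taken by symbol from the 23835 named genes of the arrays, 1 row each. They were set by name and not by a cut on their levels, although earlier results of these data were known by then. Snai1 (Snail) and Snai2 (Slug) are zinc finger repressors, and Zeb1 and Zeb2 are zinc finger homeodomain repressors. Both families bind E-box motifs in front of epithelial genes such as Cdh1, which encodes E-cadherin. Twist1 and Twist2 are basic helix-loop-helix factors that work as dimers with E proteins, and Prrx1 is a homeodomain factor of limb and connective tissue mesenchyme. In the normal mammary gland Snai2 belongs to basal cells, whereas the Zeb, Twist and Prrx genes are chiefly genes of the stroma.

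The arrays came from a mouse model of mammary tumour dormancy and recurrence. Tumour cells of the genotype MMTV-rtTA;TetO-Wnt1, marked with H2B-eGFP, had been placed in the mammary gland of female nu/nu mice kept on doxycycline. The MMTV promoter drives the rtTA activator chiefly in mammary epithelium, and rtTA switches on the Wnt1 transgene only while doxycycline is given. The tumour cells of all groups carried both transgenes and the GFP label. All hosts were athymic, with no mature T cells but with macrophages, NK cells and B cells. The purity of the measured cells was not tested. The GFP-positive cells of 3 stages were measured. Primary tumours, labelled untreated, gave 4 arrays. Residual lesions, labelled Wnt1 inhibition and taken 28 days after doxycycline withdrawal, gave 3 arrays. Recurrent tumours, also labelled Wnt1 inhibition, gave 4 arrays, with no time stated for them. The series title names a single primary line, Wnt1-Prim1, so the stages may share 1 tumour of origin. The sources used here give no age for the mice. Nothing in the labels ties the replicates of a stage to separate mice, so a p-value here speaks only of the scatter among these arrays, which could be technical.

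Levels are deposited log2 signals, on which a difference of 1 is a doubling. Each probe set has its own brightness, so levels are compared between arrays and not between genes. The array medians ran from 4.29 to 4.41. A signal was taken as above background where it passed the 95th percentile of the 1066 olfactory receptor genes of the same array, which lay at 3.96 to 4.02 on primary arrays, 4.34 to 4.38 on residual arrays and 4.03 to 4.09 on recurrent arrays. By that measure 6 of the 7 factors were above background on all 11 arrays, and Twist2 was above it on 1. The luminal keratins Krt8 and Krt18 were above background on all 11 arrays. Epcam, the epithelial adhesion molecule, was above it on only 1, residual replicate 2, at 6.29, while the other 10 arrays held 3.14 to 4.10. Vim, the mesenchymal filament vimentin, stood at 12.2 or more on every array.

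The E-box that the Snail and Zeb proteins bind is CACCTG, or CAGGTG on the opposite strand, and a search of RefSeq upstream windows shows how many of the epithelial genes described below hold one. The windows are the 250 bases before a gene's start in build GRCm38.p6, written 5′ to 3′ on the gene's strand. Across all 27025 genes with a window, 19.4% held the motif on either strand. It was found in 14 of the 21 epithelial genes with a window (66.7%), in 5 of 9 epithelial transcription factors (55.6%) and in 0 of 21 mesenchymal genes. Of the EMT factors, 5 had a window, and only that of Snai1 held the motif, 126 bases before the start. Snai2, Zeb1 and Cdh1 have no window printed here. A match is a description of these letters and not evidence of binding. The 5 windows below are Snai1, whose protein is known to repress its own gene, the keratins Krt7, Krt8 and Krt18, which changed between stages, and Epcam, with the motif in capitals. It lies 44 bases before the start in Krt7, 111 in Krt8, 214 in Krt18, and 187 and 19 in Epcam.
Snai1 (chr2:167537945-167538194, plus strand): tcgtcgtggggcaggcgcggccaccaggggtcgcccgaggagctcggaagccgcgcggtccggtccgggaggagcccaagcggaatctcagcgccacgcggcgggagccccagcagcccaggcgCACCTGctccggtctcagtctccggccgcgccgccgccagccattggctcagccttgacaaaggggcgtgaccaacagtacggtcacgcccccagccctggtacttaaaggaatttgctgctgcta
Krt7 (chr15:101412153-101412402, plus strand): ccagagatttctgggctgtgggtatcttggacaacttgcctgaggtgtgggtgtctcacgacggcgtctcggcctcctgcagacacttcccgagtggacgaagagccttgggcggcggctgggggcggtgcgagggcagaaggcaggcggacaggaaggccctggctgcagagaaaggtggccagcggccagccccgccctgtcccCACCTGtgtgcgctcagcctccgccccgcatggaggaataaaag
Krt8 (chr15:102004343-102004592, minus strand): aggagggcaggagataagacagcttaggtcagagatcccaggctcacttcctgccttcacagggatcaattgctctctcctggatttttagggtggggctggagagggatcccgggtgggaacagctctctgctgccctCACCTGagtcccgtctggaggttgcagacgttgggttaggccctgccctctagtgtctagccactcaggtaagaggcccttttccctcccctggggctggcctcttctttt
Krt18 (chr15:102027966-102028215, plus strand): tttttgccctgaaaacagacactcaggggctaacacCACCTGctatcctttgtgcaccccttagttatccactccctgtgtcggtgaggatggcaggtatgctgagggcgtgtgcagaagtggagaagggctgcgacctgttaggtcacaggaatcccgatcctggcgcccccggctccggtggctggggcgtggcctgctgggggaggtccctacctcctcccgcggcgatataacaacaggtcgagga
Epcam (chr17:87635729-87635978, plus strand): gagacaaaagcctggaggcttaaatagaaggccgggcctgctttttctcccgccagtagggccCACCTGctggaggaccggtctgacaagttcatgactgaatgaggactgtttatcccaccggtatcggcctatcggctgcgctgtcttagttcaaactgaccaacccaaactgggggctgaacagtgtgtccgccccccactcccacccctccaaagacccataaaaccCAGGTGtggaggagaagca

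The Zeb genes are also held down by the miR-200 family, whose members pair with Zeb1 and Zeb2 messages through their seeds. The 5 mature miRNAs fall into 2 seed groups that differ by a single base, and they are printed with bases 2 to 8, the seed, in capitals (RefSeq, GRCm38.p6). The first 3 share the seed AAUACUG and the last 2 share AACACUG.
mmu-miR-200b-3p: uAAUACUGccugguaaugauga
mmu-miR-200c-3p: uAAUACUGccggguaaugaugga
mmu-miR-429-3p: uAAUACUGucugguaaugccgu
mmu-miR-200a-3p: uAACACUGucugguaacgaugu
mmu-miR-141-3p: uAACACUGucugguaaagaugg
The arrays carry probe sets for the precursor genes, which short mature miRNAs need not follow. Of the 9 miR-200, miR-205 and miR-34 genes measured, 0 were above background on at least 3 arrays, with list means of 2.66 to 2.83 on primary arrays, 2.88 to 2.92 on residual arrays and 2.56 to 2.82 on recurrent arrays. With limma, 0 of the 9 were called in any comparison, and those with an unadjusted p under 0.05 numbered 2 between residual and primary cells, 1 between recurrent and primary cells and 1 between recurrent and residual cells. These levels give no measure of the miRNAs themselves.

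Groups were compared with limma across all 23835 genes, and a gene was called at a Benjamini-Hochberg adjusted p under 0.05, which is the adjusted p given below unless another test is named. The 3 comparisons share arrays, each group entering 2 of them, so their results are not independent. In residual against primary cells 2 of the 7 factors were called, both higher (28.6%, against 12.4% of all genes called, 4.81% higher and 7.61% lower). In recurrent against primary cells 1 of 7 was called, higher (14.3%, against 1.8% of all genes, 0.818% higher and 0.986% lower). In recurrent against residual cells 1 of 7 was called, higher (14.3%, against 5.78% of all genes, 3.58% higher and 2.19% lower). Snai1, Snai2 and Twist1 account for these calls, and Zeb1, Zeb2, Twist2 and Prrx1 were called in none. At an unadjusted p under 0.05 the factors numbered 5 in residual against primary cells (25.8% of all genes), 4 in recurrent against primary cells (13.6%) and 2 in recurrent against residual cells (19.7%). The arrays of residual and primary cells did not overlap for 3 of the 7, Snai2 and Zeb1 (higher) and Prrx1 (lower), a separation that 24.8% of all genes showed. Recurrent and primary arrays did not overlap for Snai2 and Zeb1 (higher) and Zeb2 (lower), against 9.02% of all genes. Recurrent and residual arrays overlapped for all 7, where 8.18% of all genes were higher and 7.32% lower on every recurrent array. The factors did not move as a block. In residual against primary cells 3 of the 7 had a positive change, in recurrent against primary cells 5 and in recurrent against residual cells 5. Their median log2 change, with Twist2 counted, was -0.42, 0.27 and 0.59 in the same order, where the median of all genes was 0.03, -0.01 and -0.03.

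**Figure D1:**
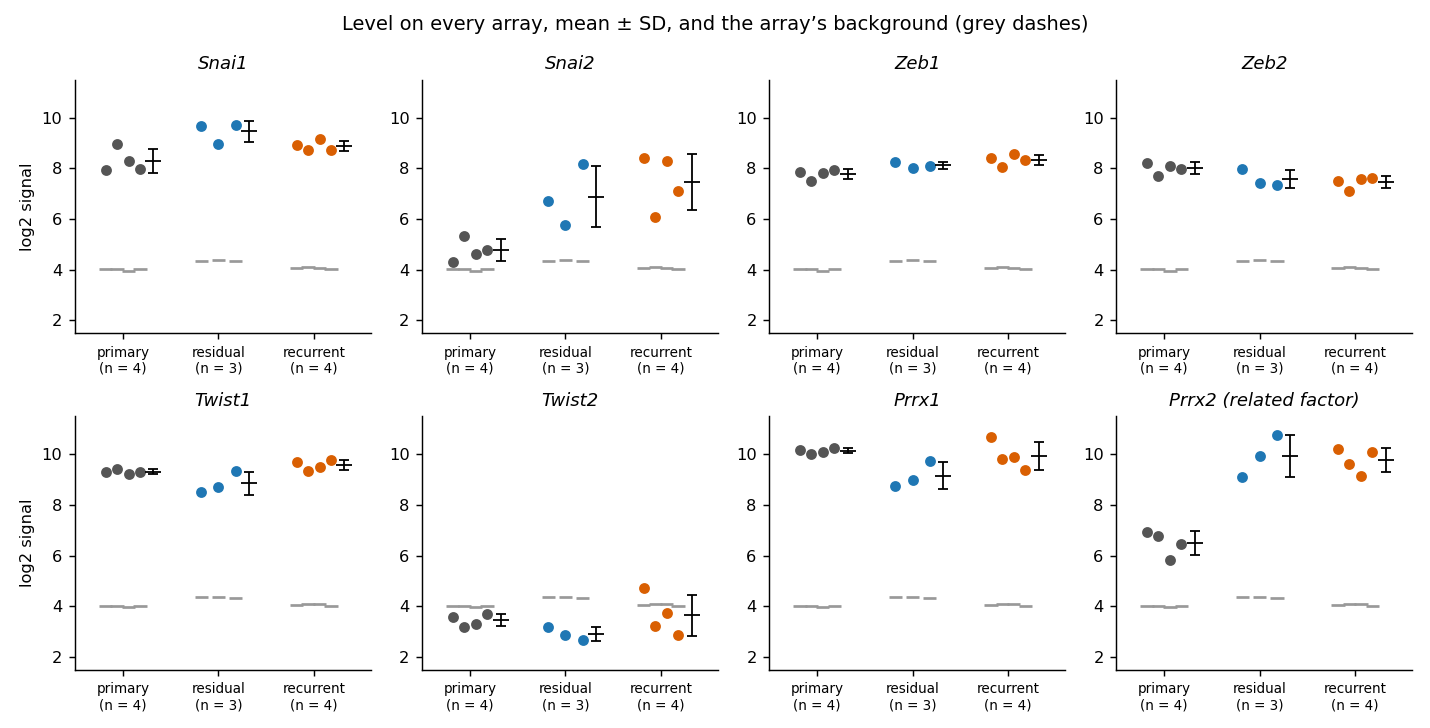
Log2 signal of each EMT factor, and of the related gene Prrx2, on each of the 11 arrays by stage; points are arrays, bars are group means ± SD and grey dashes mark each array's background. Snai2 is lower on all 4 primary arrays (4.32 to 5.35) than on any residual or recurrent array (5.78 to 8.40), while Twist2 lies at background on 10 arrays.

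Snai2 showed the widest range of the 7 factors. It read 4.32, 5.35, 4.61 and 4.78 on the primary arrays, replicates 1 to 4. The residual arrays read 6.70, 5.78 and 8.16, and the recurrent arrays 8.40, 6.06, 8.30 and 7.10. Every residual and every recurrent array was above every primary array, and the residual and recurrent arrays overlapped. Snai2 was 4.33-fold higher in residual than in primary cells (6.88 ± 1.20, n = 3, against 4.77 ± 0.43, n = 4, means ± SD; log2 change 2.11, SE 0.61, adjusted p = 0.0434). It was 6.50-fold higher in recurrent than in primary cells (7.47 ± 1.11 against 4.77 ± 0.43, n = 4 each; log2 change 2.70, SE 0.56, adjusted p = 0.0369). Of all genes, 11.1% were higher on every residual than on any primary array, and 3.64% were higher on every recurrent than on any primary array. Recurrent and residual cells did not differ at the threshold (log2 change 0.59, 95% interval -0.75 to 1.92, adjusted p = 0.663).

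Both Snai2 calls lay close to the threshold. The residual call was lost on leaving out any of residual replicates 1 and 3, recurrent replicate 4 or primary replicates 1 to 4, with adjusted p of 0.0861, 0.163, 0.0536, 0.103, 0.0583, 0.0933 and 0.0859, and the log2 change was 1.47 without residual replicate 3. The recurrent call was lost without residual replicate 1, recurrent replicates 1, 3 or 4 or primary replicates 1 to 4, with adjusted p of 0.0558, 0.0812, 0.0882, 0.0604, 0.113, 0.0676, 0.101 and 0.0962. The direction held in all 11 fits of each, as it had to, since no residual or recurrent array overlapped the primary arrays. With replicate number as a block the adjusted p was 0.0889 and 0.112.

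Markers of fibroblasts, a stromal cell type that itself expresses Snai2, moved with it. Of 13 fibroblast markers 10 were called higher in residual than in primary cells (76.9%, against 12.4% of all genes called). In recurrent against primary cells 7 were called higher (53.8%, against 1.8% of all genes). Their median log2 changes were 2.68 and 2.74. Their mean over the list was 5.89 to 6.44 on primary arrays, 8.01 to 9.27 on residual arrays and 7.87 to 8.73 on recurrent arrays. The brightest were Serpinf1, Dcn and Col1a2, which were above background on all 11 arrays, primary ones included. Within the residual group and within the recurrent group, replicate 2 held both the lowest Snai2 level and the lowest fibroblast mean (8.01 and 7.87). Their part in the Snai2 difference was not tested. In RNA of a cell population, more cells of a type and more RNA per cell cannot be told apart.

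Snai1 had its highest mean in residual cells. It read 7.92, 8.98, 8.31 and 7.98 on the primary arrays, 9.68, 8.97 and 9.73 on the residual arrays, and 8.94, 8.72, 9.16 and 8.74 on the recurrent arrays. Primary replicate 2 just overlapped residual replicate 2, and the other primary arrays lay below all residual and recurrent arrays. Snai1 was 2.24-fold higher in residual than in primary cells (9.46 ± 0.42 against 8.30 ± 0.49; log2 change 1.16, SE 0.26, adjusted p = 0.0139). The call was lost without residual replicate 1 or 3 (adjusted p = 0.0544 and 0.0593), held in the other 9 such fits with changes of 1.03 to 1.41 over all 11, and was lost with replicate number as a block (adjusted p = 0.154). Recurrent cells, at 8.89 ± 0.20, did not pass the test against primary cells (log2 change 0.59, SE 0.24, adjusted p = 0.305) or against residual cells (-0.57, adjusted p = 0.259).

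Snail protein is made and destroyed quickly, so the genes of its turnover were also measured. Gsk3b, the kinase that marks Snail for destruction, was higher in residual than in primary cells by 0.65 on the log2 scale (adjusted p = 0.0286). Fbxw7, a substrate receptor of an SCF ubiquitin ligase, was higher by 1.17 (adjusted p = 0.000442), and lower in recurrent than in residual cells by a log2 change of -1.42 (adjusted p = 0.000209). Mdm2, the ubiquitin ligase best known for p53, moved the other way, at -1.14 and 0.72 (adjusted p = 0.000525 and 0.0173). Of the 18 genes of this list 3 were called higher and 2 lower in residual against primary cells (27.8%, against 12.4% of all genes). In recurrent against primary cells 0 were called (2 at an unadjusted p under 0.05). Recurrent against residual cells had 1 higher and 1 lower (11.1%, against 5.78% of all genes). Usp17le, a deubiquitinase among the 3 called higher, was above background on 0 of 11 arrays (3.43 ± 0.33 in residual and 2.66 ± 0.31 in primary cells), so no change in its level can be read. Protein levels of Snail were not measured.

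Of the co-repressors that Snail and Zeb proteins recruit, 15 were measured. In residual against primary cells 3 were called lower: Ezh2, the histone H3 lysine methylase of Polycomb, by a log2 change of -0.92, its partner Suz12 by -0.65, and Rcor1, the CoREST scaffold of the LSD1 demethylase, by -0.59 (adjusted p = 0.00516, 0.00473 and 0.046). Ezh2 and Suz12 were higher in recurrent than in residual cells, by 0.87 and 0.53 (adjusted p = 0.0135 and 0.0262). In recurrent against primary cells limma called 0 of 15, and 0 had an unadjusted p under 0.05. The list median was -0.34 in residual against primary cells, where that of all genes was 0.03.

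The Zeb genes had changes of opposite sign. Zeb1 read 7.88, 7.49, 7.81 and 7.94 on the primary arrays, 8.27, 8.01 and 8.10 on the residual arrays and 8.41, 8.07, 8.55 and 8.32 on the recurrent arrays. All residual and all recurrent arrays were above all primary arrays, by small margins. The log2 change was 0.35 in residual against primary cells (95% interval 0.01 to 0.68, adjusted p = 0.176) and 0.56 in recurrent against primary cells (SE 0.14, adjusted p = 0.077), and neither passed the threshold.

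Zeb2 read 8.23, 7.69, 8.11 and 7.99 on the primary arrays, 7.99, 7.44 and 7.33 on the residual arrays and 7.51, 7.12, 7.58 and 7.64 on the recurrent arrays. Every recurrent array was below every primary array, a pattern that 5.38% of all genes showed, and the residual arrays overlapped the primary ones. The log2 change was -0.55 in recurrent against primary cells (SE 0.18, adjusted p = 0.181) and -0.42 in residual against primary cells (adjusted p = 0.207). Neither Zeb gene differed at the threshold between recurrent and residual cells (0.21, adjusted p = 0.497, for Zeb1 and -0.13, adjusted p = 0.787, for Zeb2). Macrophages also express Zeb2. Of 12 macrophage markers 4 were called lower in residual than in primary cells (33.3%, against 12.4% of all genes called). In recurrent against primary cells 0 of these markers were called (3 at an unadjusted p under 0.05). Their mean was 5.67 to 6.34 on primary arrays, 4.87 to 5.69 on residual arrays and 5.21 to 6.17 on recurrent arrays. Their part in the Zeb2 values was not tested.

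**Figure D2:**
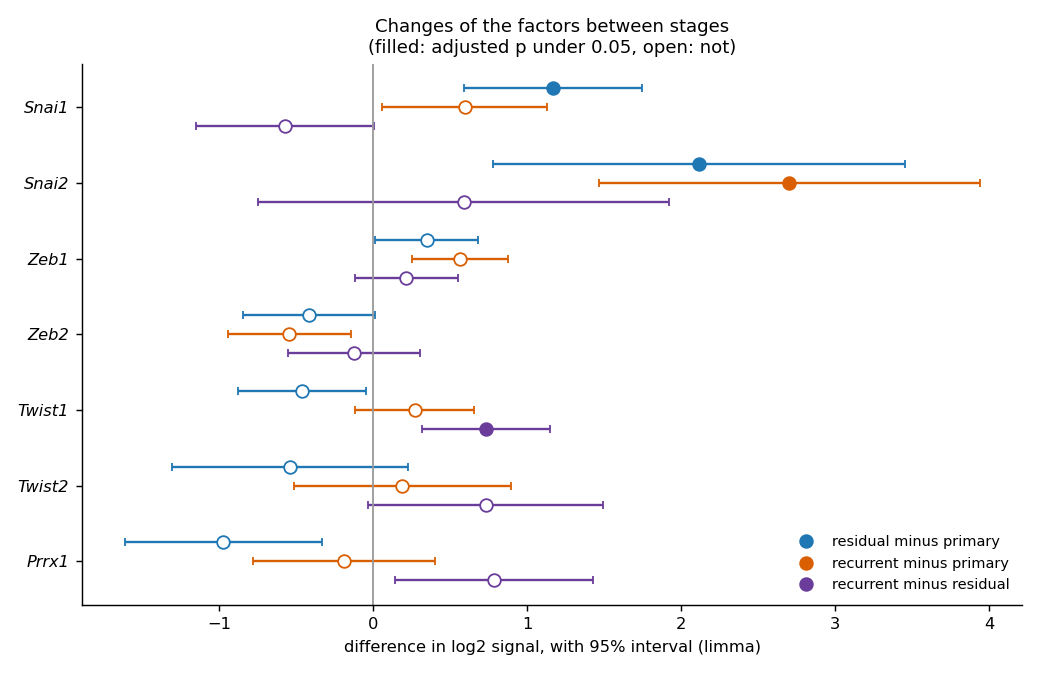
Difference in log2 signal of each EMT factor in the 3 comparisons, as points with 95% intervals from limma, filled where the adjusted p was under 0.05. Snai2 has the points farthest from 0 (2.11 and 2.70 against primary cells), and Zeb1 and Zeb2 lie on opposite sides of 0 in both comparisons with primary cells.

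The balance within each related pair was set out by subtracting the log2 signals of paralogs on the same array, which carries the level of each probe set and is compared between arrays only. Zeb2 minus Zeb1 was 0.36, 0.20, 0.30 and 0.06 on the primary arrays, -0.27, -0.57 and -0.76 on the residual arrays and -0.91, -0.95, -0.97 and -0.69 on the recurrent arrays. Every residual and every recurrent array lay below every primary array. The difference between groups was -0.77 in residual against primary cells (exact permutation p = 0.0571, two-sided, the smallest that 3 against 4 arrays allow), -1.11 in recurrent against primary cells (exact permutation p = 0.0286, the smallest for 4 against 4) and -0.34 in recurrent against residual cells (exact permutation p = 0.114). Over the 9 such tests the adjusted p was 0.129, 0.129 and 0.206, so none passed.

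Snai2 minus Snai1 averaged -3.53 ± 0.22 on primary arrays, -2.58 ± 0.89 on residual arrays and -1.42 ± 0.95 on recurrent arrays. The groups did not overlap in either comparison with primary cells, although residual replicate 2 (-3.19) and primary replicate 4 (-3.20) all but met. The differences were 0.95 in residual against primary cells, 2.11 in recurrent against primary cells and 1.16 in recurrent against residual cells (exact permutation p = 0.0571, 0.0286 and 0.171, adjusted p = 0.129, 0.129 and 0.257). Twist2 minus Twist1 differed by -0.08, -0.08 and -0.00 (exact permutation p = 0.857, 0.857 and 0.971), and Twist2 lay at background on 10 of the 11 arrays, so these values carry little information.

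**Figure D3:**
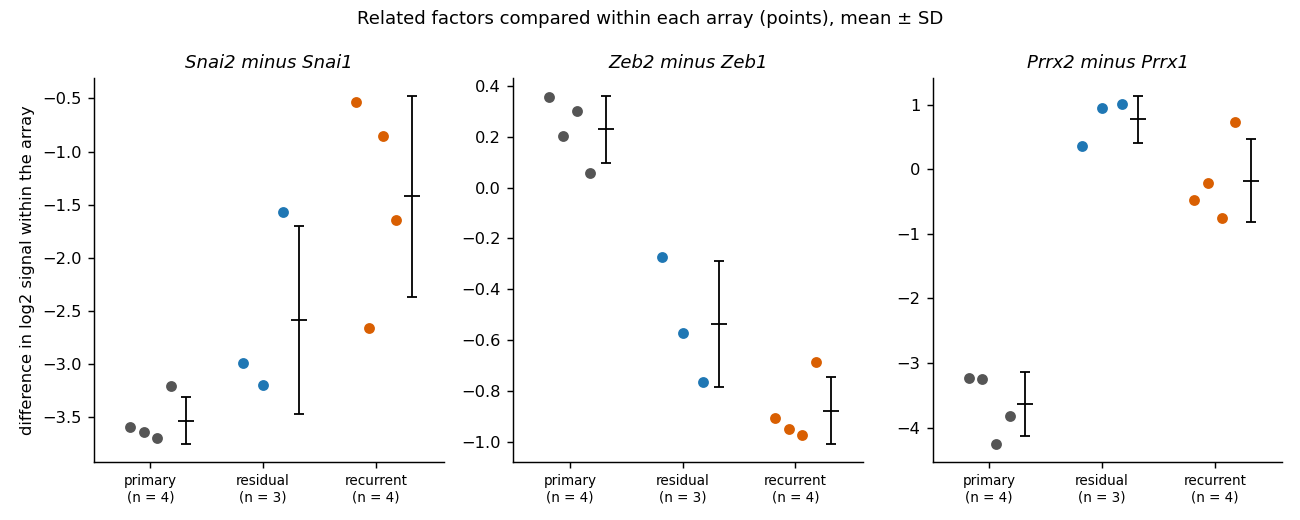
Difference in log2 signal between related genes on each array, by stage; points are arrays and bars are group means ± SD. Zeb2 minus Zeb1 is lower on every residual and recurrent array (-0.97 to -0.27) than on any primary array (0.06 to 0.36), and Prrx2 minus Prrx1, added after its values were seen, lies between -0.75 and 1.02 on residual and recurrent arrays and between -4.26 and -3.23 on primary arrays.

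Twist1 had its lowest mean in residual cells. It read 9.30, 9.43, 9.23 and 9.32 on the primary arrays, 8.51, 8.70 and 9.36 on the residual arrays and 9.69, 9.36, 9.52 and 9.79 on the recurrent arrays. Residual replicate 3 stood apart from the other 2 residual arrays, within the range of the primary arrays and level with the lowest recurrent one. Twist1 was 1.66-fold higher in recurrent than in residual cells (9.59 ± 0.19 against 8.86 ± 0.44; log2 change 0.73, SE 0.19, adjusted p = 0.0454). In residual against primary cells the log2 change was -0.46 (adjusted p = 0.147), and in recurrent against primary cells 0.27 (adjusted p = 0.568).

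The Twist1 call in recurrent against residual cells held in only 2 of the 11 fits that left out an array. It was lost on leaving out residual replicates 1 or 2, recurrent replicates 1, 3 or 4 or primary replicates 1, 2, 3 or 4, with adjusted p of 0.152, 0.138, 0.0891, 0.0775, 0.101, 0.0696, 0.0598, 0.0679 and 0.0696. It was also lost with the 2 groups fitted alone (adjusted p = 0.146), with arrays quantile-normalized again (0.0847), with arrays scaled to 1 median and 1 interquartile range (0.119), with array weights (0.0676) and with replicate number as a block (0.323). Without residual replicate 3, Twist1 was instead called lower in residual than in primary cells (log2 change -0.71, adjusted p = 0.0163).

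Twist2 was listed at 3.58, 3.21, 3.32 and 3.70 on the primary arrays, 3.21, 2.86 and 2.68 on the residual arrays and 4.71, 3.23, 3.75 and 2.88 on the recurrent arrays. Only recurrent replicate 1, at 4.71, was above background, and no comparison passed the threshold. The fitted change was -0.54 in residual and 0.19 in recurrent cells, each against primary cells, and 0.73 between recurrent and residual cells (adjusted p = 0.375, 0.874 and 0.278). Differences between such dim signals carry little information.

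Twist proteins act with E proteins, and Id proteins take E proteins away from them. All 7 of these partner genes were above background on at least 3 arrays. Id3, an Id inhibitor, was 3.52-fold higher in residual than in primary cells (10.42 ± 0.19 against 8.60 ± 0.45; log2 change 1.82, adjusted p = 0.000467) and 3.84-fold higher in recurrent than in primary cells (10.55 ± 0.27; log2 change 1.94, adjusted p = 0.000955). Tcf4, which encodes the E protein E2-2, was higher in recurrent than in primary cells (9.94 ± 0.21 against 9.10 ± 0.28; log2 change 0.84, adjusted p = 0.0314). Of the 7, 1 was called in residual against primary cells (14.3%, near the 12.4% of all genes) and 2 in recurrent against primary cells (28.6%, against 1.8%). In recurrent against residual cells 0 were called (1 at an unadjusted p under 0.05). All called ones were higher.

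Prrx1 was lower on every residual array than on any primary array. It read 10.16, 10.03, 10.10 and 10.26 on the primary arrays, 8.75, 8.99 and 9.76 on the residual arrays and 10.70, 9.82, 9.91 and 9.37 on the recurrent arrays. Of all genes, 13.7% were lower on every residual than on any primary array. The log2 change was -0.97 in residual against primary cells (9.16 ± 0.53 against 10.14 ± 0.10; SE 0.29, adjusted p = 0.0508), just outside the threshold. It fell inside in 8 of 20 alternative settings, among them the fit without residual replicate 3 (-1.27, adjusted p = 0.0210), without recurrent replicate 1 (0.0183) or 4 (0.0349), and arrays centred on their medians (-1.06, 0.0354). Recurrent cells ranged on both sides of the primary arrays (log2 change -0.19, adjusted p = 0.846, against primary cells and 0.78, adjusted p = 0.158, against residual cells). Prrx1 is a gene of stromal fibroblasts, and the fibroblast markers were higher in residual than in primary cells where Prrx1 read lower. Within the residual group, replicate 3 held both the highest Prrx1 level (9.76) and the highest fibroblast mean (9.27). Within the recurrent group Prrx1 was highest on replicate 1 (10.70) and the fibroblast mean on replicate 3 (8.73). The part of fibroblasts in the Prrx1 values was not tested.

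Prrx2, the paralog of Prrx1, was outside the 7 factors and differed far more. It read 6.93, 6.78, 5.84 and 6.45 on the primary arrays, 9.11, 9.94 and 10.77 on the residual arrays and 10.22, 9.62, 9.16 and 10.10 on the recurrent arrays. All later arrays were above all primary arrays. It was 10.9-fold higher in residual than in primary cells (log2 change 3.44, SE 0.39, adjusted p = 0.000186) and 9.70-fold higher in recurrent than in primary cells (3.28, SE 0.36, adjusted p = 0.000902). Recurrent and residual cells did not differ at the threshold (-0.17, adjusted p = 0.871). Prrx2 was the single called gene among 9 other factors of the same families in both comparisons with primary cells (11.1%, against 12.4% of all genes for residual and 1.8% for recurrent cells). The one called between recurrent and residual cells was Scx, the tendon factor scleraxis, at a log2 change of -1.58 (adjusted p = 0.0479). Snai3, the remaining Snail gene, was at or near background on all arrays (3.63 to 4.28).

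The junction and filament genes that the factors are known to act on did not move as 1 program. Cdh1 read 6.64, 6.63, 6.33 and 6.34 on the primary arrays, 6.80, 8.11 and 6.89 on the residual arrays and 6.41, 7.36, 5.34 and 4.84 on the recurrent arrays. It was above background on all 11 arrays. Its log2 change was 0.78 in residual against primary cells, -0.50 in recurrent against primary cells and -1.28 in recurrent against residual cells, with adjusted p of 0.382, 0.730 and 0.188, so none passed. Within the residual group and within the recurrent group the array lowest in Snai2, replicate 2 (5.78 and 6.06), was the highest in Cdh1 (8.11 and 7.36), a pairing noticed after the values were seen. The primary arrays, lowest in Snai2, were in the middle of the Cdh1 range. Residual replicate 2 was also the single array with Epcam above background, so 1 array carries much of the spread of Epcam. Cdh1 spread most among the recurrent arrays, from 4.84 to 7.36.

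**Figure D4:**
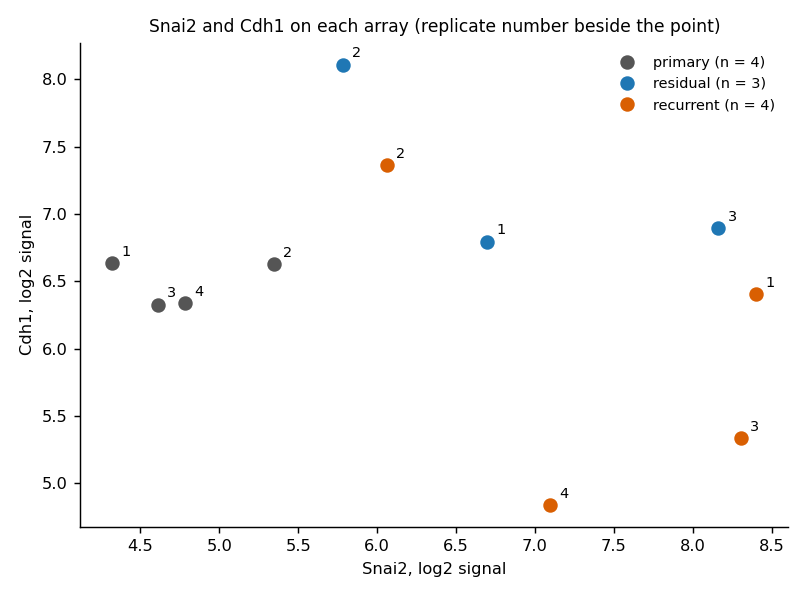
Cdh1 log2 signal against Snai2 log2 signal on each of the 11 arrays, with stages in colour. Primary arrays group at low Snai2 and middle Cdh1 (6.33 to 6.64), and replicate 2 of the residual and of the recurrent group lies at the low Snai2 and high Cdh1 end of its group.

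Of 32 epithelial genes repressed in EMT, 17 were not above background on at least 3 arrays. In residual against primary cells 3 were called higher and 3 lower (18.75%, against 12.4% of all genes), with a list median of 0.33. The lower ones were Krt18 at -2.32, Krt8 at -1.67 and the claudin Cldn3 at -1.62 (adjusted p = 0.00432, 0.000103 and 0.0080), and Jup, the junction protein plakoglobin, was higher by 1.62 (adjusted p = 0.00132). In recurrent against primary cells 2 were called (6.25%, against 1.8% of all genes), both lower: Krt7 at -2.31 and Cldn3 at -2.19 (adjusted p = 0.0206 and 0.00395), with a list median of 0.02. In recurrent against residual cells 2 were higher and 5 lower (21.9%, against 5.78% of all genes), among them Krt18 at 1.75 and Krt7 at -2.10 (adjusted p = 0.0339 and 0.0209), with a list median of -0.32. Of the keratins whose upstream windows are printed above, Krt8 and Krt18 were called lower than primary cells in residual cells, and Krt7 in recurrent cells. These windows were picked because the keratins changed. The motif was also found in front of Spint2, which read higher on every residual array (5.32 to 7.15) than on any primary array (4.17 to 5.29). A link between motif and change was not tested. Krt7 also read below all primary arrays (6.11 to 6.27) on residual replicates 1 and 3 (5.33 and 5.38), but 7.26 on residual replicate 2. It was above background on only 2 of the 4 recurrent arrays, which limits the size of its changes there.

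Epithelial transcription factors that oppose EMT were measured as 17 genes, 8 of them dim. Klf5, a Krüppel-like factor of epithelia, was the single called one in residual against primary cells, at -1.24 (8.31 ± 0.39 against 9.55 ± 0.16; adjusted p = 0.0108). It made up 5.88% of the list, where 12.4% of all genes were called. With limma 0 of 17 were called in recurrent against primary cells and 0 in recurrent against residual cells, where 2 and 5 had an unadjusted p under 0.05. Grhl2, which opposes Zeb1 in other epithelia, had a log2 change of 0.65 in recurrent against primary cells (adjusted p = 0.192).

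All 34 mesenchymal genes of the list were above background on at least 3 arrays. In residual against primary cells 11 were called higher and 2 lower (38.2%, against 12.4% of all genes), with a median of 0.36. The largest changes were in matrix genes: periostin (Postn) at 6.79, collagen III (Col3a1) at 4.00, Fstl1 at 3.81 and the gelatinase Mmp2 at 3.13 (adjusted p = 1.61e-05, 0.000306, 0.000808 and 0.000141). Postn read 3.76 to 6.38 on the primary arrays and was above background on 3 of them, which limits the size of its changes against primary cells. In recurrent against primary cells 7 were higher and 1 lower (23.5%, against 1.8% of all genes), with a median of 0.28. The largest were Postn at 6.29, Col3a1 at 3.90 and the collagen receptor Ddr2 at 3.32. Ddr2 was above background on 3 primary arrays and not on the remaining one, which limits the size of its change. Recurrent against residual cells had 6 higher and 2 lower (23.5%, against 5.78% of all genes), with a median of -0.09. Matrix genes are also made by fibroblasts, and 3 of the list, Col1a1, Col1a2 and Col3a1, are on the fibroblast list too, so fibroblast markers moved with this group as well, and their part was not tested.

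The filament and cadherin of this list went otherwise than the collagens. Vim was 12.90 ± 0.03 in primary cells, 12.31 ± 0.09 in residual cells and 12.81 ± 0.09 in recurrent cells, near the top of the table, where the highest value is 13.34. It was lower in residual than in primary cells (-0.59, adjusted p = 0.0045), higher in recurrent than in residual cells (0.50, adjusted p = 0.0193) and not called between recurrent and primary cells (-0.09, adjusted p = 0.798). Cdh2, N-cadherin, was lower in recurrent cells (7.06 ± 0.51) than in primary cells (8.28 ± 0.26; log2 change -1.21, adjusted p = 0.0231) and than in residual cells (8.46 ± 0.14; log2 change -1.40, adjusted p = 0.0071).

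**Figure D5:**
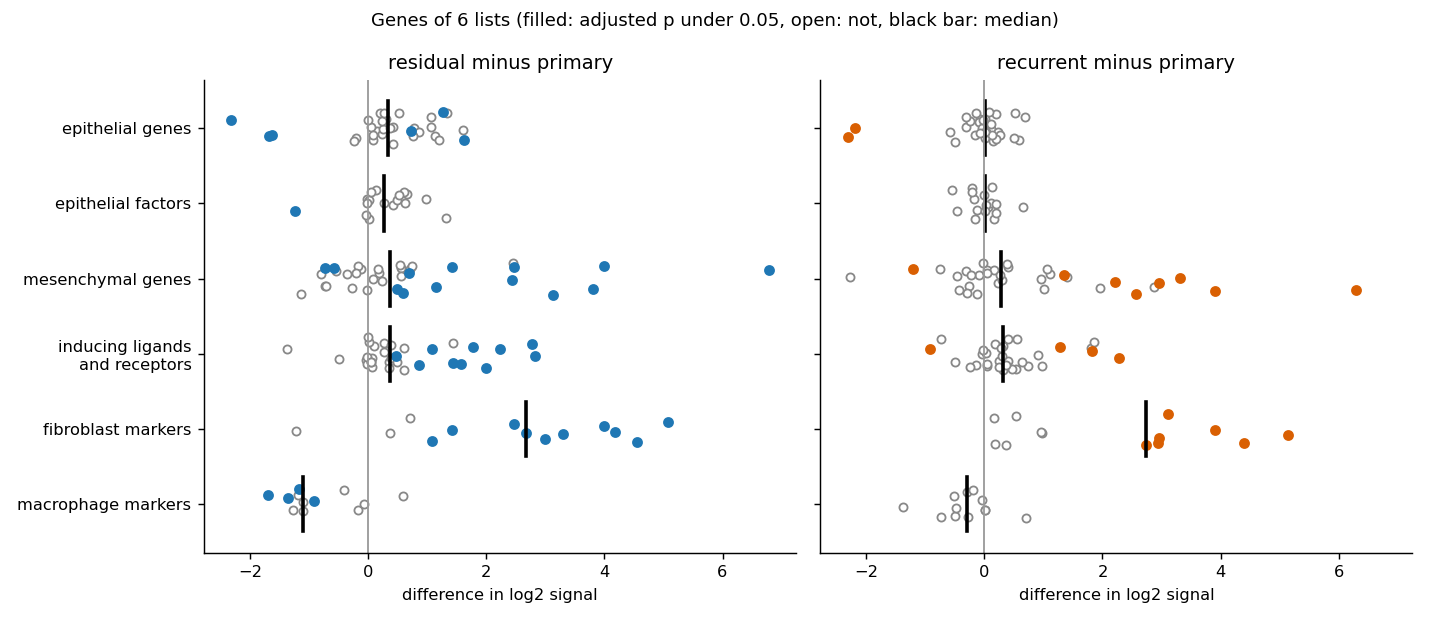
Difference in log2 signal of each gene of 6 lists, residual minus primary on the left and recurrent minus primary on the right; filled points had an adjusted p under 0.05 and the black bar is the list median. The rightmost point is Postn (6.79 and 6.29), and the fibroblast markers have the highest medians (2.68 and 2.74).

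Of 32 ligands, receptors and signal carriers that induce EMT, 10 were called higher and 0 lower in residual than in primary cells (31.25%, against 12.4% of all genes), with a median of 0.37. They included the platelet-derived growth factor receptor Pdgfrb at 2.82, the Notch ligand Jag1 at 2.77, Egfr at 2.23 and Tgfb3 at 1.99 (adjusted p = 5.74e-07, 0.00289, 0.000216 and 4.67e-05). In recurrent against primary cells 3 were called higher, Pdgfrb at 2.29, Egfr at 1.82 and Tgfb3 at 1.28, and the oncostatin M receptor Osmr was lower at -0.92 (12.5% called, against 1.8% of all genes). In recurrent against residual cells 1 was called higher, Met, the receptor of hepatocyte growth factor, at 3.24 (adjusted p = 0.0159). Met read 9.57, 9.63, 12.44 and 12.46 on the recurrent arrays, replicates 1 to 4, so the recurrent arrays were unlike one another. It read 7.76, 8.17 and 7.41 on the residual arrays and 8.81 to 9.31 on the primary arrays. In the same comparison 7 were lower, among them Jag1 at -2.13, Tgfb1 at -1.48 and the Wnt receptor Fzd7 at -1.40. Pdgfrb is also a pericyte marker, and it was the single called gene of the 9 on that list in both comparisons with primary cells (11.1%, against 12.4% of all genes for residual and 1.8% for recurrent cells).

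Of 20 other transcription factors linked to EMT, 6 were called higher and 3 lower in residual than in primary cells (45.0%, against 12.4% of all genes). The largest changes were Fosl1, the AP-1 subunit Fra-1, at -4.64, the chromatin protein Hmga2 at -2.76, the forkhead factor Foxq1 at 1.57 and the ETS factor Etv1 at -1.54 (adjusted p = 9.46e-07, 5.32e-07, 0.00335 and 0.0129). Fosl1 read 4.74, 5.23 and 4.24 on the residual arrays, above background on 2 of the 3. The size of its changes against residual cells is thus limited by background. Of the same list, 2 were higher and 2 lower in recurrent than in residual cells (20.0%, against 5.78% of all genes): Fosl1 at 4.64, Hmga2 at 2.18, Foxq1 at -1.44 and Runx1 at -0.62. Fosl1 in recurrent cells (9.38 ± 0.43) stood at the level of primary cells (9.38 ± 0.17; log2 change -0.01, 95% interval -0.53 to 0.52), and Hmga2 was the single called gene in recurrent against primary cells, at -0.58 (adjusted p = 0.0466).

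For the 3 called factors, the genes of most similar profile were found by the mean absolute difference over the 11 arrays between profiles centred on their own means, among the 12734 genes that remained of those above background on at least 3 arrays after those with only a predicted-gene or clone symbol were left out. The genes closest to Snai2 were Igsf10 at 0.34, Csrp2 at 0.37 and Carmn at 0.43, where Snai2 itself deviated by 1.28 on average. Closest to Snai1 were Hddc3 at 0.18, Selenom at 0.19 and Cldn34c1 at 0.19, where Snai1 deviated by 0.45. Closest to Twist1 were Map4k5 at 0.10, Rac3 at 0.12 and Calm3 at 0.13, where Twist1 deviated by 0.26. Arrays share their stage, so a like profile says no more than that these genes have a like order of stages and arrays.

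Markers of the other cell types differed less than those of fibroblasts. With limma 0 of 10 lymphocyte and NK markers, 0 of 6 adipocyte markers and 0 of 6 skeletal muscle markers were called in any comparison, against 4, 1 and 0 of them at an unadjusted p under 0.05 in residual against primary cells. Of 12 endothelial markers 1 was called, higher in residual than in primary cells (8.33%, against 12.4% of all genes). Of 13 luminal markers 2, Krt8 and Krt18, were called lower in residual than in primary cells (15.4%, against 12.4% of all genes). In recurrent against primary cells 0 were called (1 at an unadjusted p under 0.05). Recurrent against residual cells had 2 higher (15.4%, against 5.78% of all genes). Of 11 markers of basal and myoepithelial cells, in which Snai2 is normally found, 3 were called higher and 1 lower in residual than in primary cells (36.4%, against 12.4% of all genes). Recurrent against primary cells had 1 higher (9.09%, against 1.8% of all genes). In recurrent against residual cells 1 was called higher and 1 lower (18.2%, against 5.78% of all genes). The 3 brightest differed in direction, with primary, residual and recurrent means of 7.63, 10.36 and 7.08 for Krt14, 8.59, 5.97 and 7.87 for Itga6 and 5.69, 8.14 and 8.57 for Acta2. Basal means were 4.70 to 4.92 on primary arrays, 5.38 to 5.49 on residual arrays and 4.97 to 5.76 on recurrent arrays, and their part in the Snai2 values was not tested.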

How the data were processed

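RNA of 11 samples of GFP-positive mouse mammary tumour cells was extracted with Trizol and labelled as biotinylated cRNA for Affymetrix arrays, per the labels. The authors deposited 1 table of log2 signals, 24479 rows by 11 arrays. RMA and R 3.0.2 are named in the submitters' processing notes, and no source used here gives a version for the probe annotation. RMA compresses differences between dim signals. The values, 1.10 to 13.34, were used as deposited, and scanner files were not used here. Groups came from the sample titles.

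Of the rows 23281 were named by the platform table, 556 by RefSeq (GRCm38.p6) through Entrez Gene identifiers, and 642 not at all. For 2 symbols with 2 rows the brighter was kept, leaving 23835 genes. The 7 factors were matched by symbol. A linear model with 3 group means was fitted to all 11 arrays with limma 3.58.1 in R 4.3.3 (8 residual and 3.46 prior degrees of freedom), moderated two-sided tests were adjusted by Benjamini-Hochberg over all genes of a comparison, and calls were made at an adjusted p under 0.05. Paralog differences were compared by exact permutation, adjusted over 9 tests (Python 3.11.15). Upstream and miRNA sequences came from RefSeq tables.

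The 20 gene lists hold 294 entries, of which 292 were matched (Lyz2 and Mir205hg are not analysed here). Named are all 7 factors, Cdh1 and Vim, and of each list up to 4 called genes of largest change per comparison, or up to 2 of smallest p where none was called; Epcam, Cdh2, Prrx2 values and Snai3 were added after their values were seen. The members and lists were chosen with earlier results of these data known. Alternatives were 2-group fits, a replicate block, 3 scalings, a filter on dim genes, 2 estimates of the spread, a stricter threshold and leaving out each array. The fit was also run on simulated data with independent noise, which checks the code and not the calls made here. Precision is limited by the number of arrays.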

Additional observations from a re-analysis of the deposited data

Results flagged for a closer look

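Among the 60 genes of the report screened in the primary and in the recurrent group, 120 groups of 4 arrays in all, 5 held an array far from the other 3, and chance alone gives about 1 in 20 such groups. None was one of the 7 EMT factors. Fbxw7, of the Snail turnover list, read 6.57 on recurrent replicate 2, where the other recurrent arrays read 6.07 to 6.11, and 6.22 on primary replicate 1, where the others read 6.53 to 6.57. Nid1, a basement membrane gene, read 9.10 on recurrent replicate 4 against 7.40 to 7.55 on the other recurrent arrays. Met read 8.81 on primary replicate 2 against 9.23 to 9.31 on the others. Scx read 8.28 on primary replicate 1 against 8.49 to 8.53 on the others.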

How the results depend on the processing

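With replicate number as a block, limma called 0, 0 and 0 of the 7 factors (5, 4 and 4 at an unadjusted p under 0.05; residual against primary cells first, then recurrent cells against primary and against residual cells) and 1571, 171 and 164 of all genes, where 2960, 430 and 1377 were called without it. Same-numbered arrays did not deviate together (correlations of -0.11 to 0.02, and in 3 of 20 cases an array correlated best with its own number). With 3 or 4 arrays in a group such correlations cannot show that the arrays are unpaired. The labels do not say whether a number links arrays, so the block was kept as an alternative. At an adjusted p under 0.01 limma called 0, 0 and 0 factors (5, 4 and 2 at an unadjusted p under 0.05) and 1375, 142 and 521 genes. In recurrent against residual cells the single factor called, Twist1, was also lost (0 called) with the 2 groups fitted alone, where 609 genes were called, with arrays quantile-normalized again, with arrays scaled to 1 median and 1 interquartile range, and with array weights (2, 4, 3 and 3 at an unadjusted p under 0.05). Leaving out each array in turn gave 0 to 3, 0 to 1 and 0 to 1 factors and 2228 to 3073, 203 to 420 and 936 to 1325 genes. The lowest counts in recurrent against primary cells were 207, 225, 211 and 203 genes, without primary replicates 1, 2, 3 and 4. Leaving out an array turned the sign of 3 small changes: Zeb2 in recurrent against residual cells (-0.25 to 0.0757), Twist2 in recurrent against primary cells (-0.17 to 0.44) and Prrx1 in recurrent against primary cells (-0.44 to 0.00385). The difference between Twist2 and Twist1 also turned, over -0.40 to 0.29, -0.40 to 0.24 and -0.37 to 0.32, and to 0.18 and 0.25 in recurrent against residual cells when arrays were quantile-normalized or scaled to 1 interquartile range. The other differences between related genes kept their sign throughout. Of the called genes in residual against primary cells 38.7% were higher as deposited and 27.8% with arrays centred on their medians; in recurrent against primary cells these were 45.3% and 35.4%. In no scaling did the median of all genes move by over 0.1. RMA and the dim levels of Twist2 and the miR genes limit what can be read there, and the causes of the lost calls were not tested.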
